A study of Mus musculus with 16 samples.

Results

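The AP-1 immediate-early factors are described here through 10 genes: Fos, Fosb, Fosl1 and Fosl2 of the Fos family, Jun, Junb and Jund of the Jun family, and the related factors Atf3, Maff and Batf3. Every probe set annotated to one of them alone was taken, which gave 14 probe sets of 45037, and each gene was read through the probe set with the highest mean log2 signal over all 16 arrays. The 10 genes stand among 18193 genes represented in the same way. The arrays hold RNA of mouse kidney rudiments of stage E11.5, in 4 groups. Wild-type ureteric bud, the epithelial outgrowth that forms the collecting ducts, was parted by hand in 4 samples, each of 3 to 9 pooled buds. Wild-type metanephric mesenchyme, the source of nephrons and stroma, was parted by hand in 3 samples, each from an individual mesenchyme. Both of these had been incubated in collagenase B at 0.5 mg/ml and 37 °C before dissection. Wild-type mesenchyme was also lifted by laser from frozen sections of 7 µm in 4 samples, each pooling 3 to 4 mesenchymes. Mesenchyme without functional Hoxa11 and Hoxd11, a pair of posterior homeobox genes, was captured by laser from sections of 7 µm in 5 samples. No pooling is recorded for these samples. The sections for these came from whole urogenital ridges, and those for the wild-type captures from kidney rudiments. Both captured groups were dissected in ice-cold buffer and frozen, without collagenase. The sources used here give no strain, sex or litter. By the design text replicates come from separate embryos, and p-values measure the spread between these samples.

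AP-1 is a family of dimeric transcription factors built from basic leucine zipper proteins. Fos proteins cannot pair with themselves and bind DNA as partners of Jun proteins, while Jun proteins can also form dimers with each other. Most of the genes are immediate-early genes: their transcription rises within minutes of a growth factor, wounding or stress signal without new protein synthesis, and their mRNAs decay quickly. Growth factor signals reach Fos through MAP kinases and the serum response factor, and stress kinases phosphorylate Jun. In the embryonic kidney the growth factor GDNF activates MAP kinases in the bud through its receptor Ret.

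The bases before the start sites of the genes that the results turn on are given first, because several of these genes moved together. RefSeq windows of assembly GRCm38.p6 were at hand for 9 of the 10 genes, Fosl1 being the one without, and Maff had 3. The 250 bases before the start are shown for Fos and Fosb, which fell furthest in the captures, for Jun, which also fell, and for Jund, which did not pass the test. Capitals mark matches to TGACG, the core shared by cyclic AMP response elements, or to TGACNTCA. The latter is the palindromic site TGACGTCA with any base allowed in place of its second G, so a match such as TGACATCA in Jun is not palindromic. Both strands were searched, and TGACGTCA counts under both motifs.
Fos, chr12:85473640-85473889, plus strand: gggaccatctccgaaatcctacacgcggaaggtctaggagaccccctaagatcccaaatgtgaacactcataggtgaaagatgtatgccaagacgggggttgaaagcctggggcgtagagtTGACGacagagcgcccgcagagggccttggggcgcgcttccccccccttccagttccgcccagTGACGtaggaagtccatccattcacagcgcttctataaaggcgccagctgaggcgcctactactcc
Fosb, chr7:19310046-19310295, minus strand: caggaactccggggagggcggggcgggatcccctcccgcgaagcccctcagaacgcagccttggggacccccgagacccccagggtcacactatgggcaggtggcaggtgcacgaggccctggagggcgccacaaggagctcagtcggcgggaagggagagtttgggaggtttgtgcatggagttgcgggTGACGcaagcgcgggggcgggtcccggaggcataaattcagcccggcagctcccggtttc
Jun, chr4:95052223-95052472, minus strand: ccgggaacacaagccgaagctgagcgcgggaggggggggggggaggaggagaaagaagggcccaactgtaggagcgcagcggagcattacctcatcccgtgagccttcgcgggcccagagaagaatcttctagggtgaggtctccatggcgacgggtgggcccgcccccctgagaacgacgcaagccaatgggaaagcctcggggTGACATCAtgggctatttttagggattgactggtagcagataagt
Jund, chr8:70697489-70697738, plus strand: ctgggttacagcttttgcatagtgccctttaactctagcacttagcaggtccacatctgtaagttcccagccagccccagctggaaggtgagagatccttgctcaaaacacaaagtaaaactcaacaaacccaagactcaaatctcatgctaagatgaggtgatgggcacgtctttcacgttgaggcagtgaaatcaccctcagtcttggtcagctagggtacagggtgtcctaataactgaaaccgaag

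TGACG occurred in the windows of Fos, Fosb, Junb, Atf3 and Maff, in 6 of the 11 windows of these genes, and in 17.8% of all 32851 windows of the same length. In Fos the matches begin 129 and 66 bases before the start, in Fosb 60 and in Junb 106. TGACNTCA occurred in Jun, 45 bases before the start, and in 2 of the 3 Maff windows, against 7.49% of all windows. The windows of Fosl2, Jund and Batf3 held neither. The AP-1 site TGANTCA and the CArG box, which the serum response factor binds, were found in 0 of the 11 windows and in 6.75% and 1.47% of all windows. These are letter matches only, and nothing about binding was measured here. Bases beyond the windows were not searched, so a count of 0 does not mean that a gene lacks the site further upstream.

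The values are MAS5 signals on a linear scale, with the trimmed mean of each array set to the same level. Array medians ran from 112.7 to 209.2, and a signal below the array's own median is called dim here. Differences are on the scale log2(signal + 36.3), which understates the change of dim genes, and are given with limma's standard error (SE). Fold differences between groups are ratios of mean signals without the offset, so they need not match the log2 differences. A gene is called where the limma p, adjusted over all tested probe sets, is below 0.05. The targeted gene Hoxa11 stood at 124 ± 44.5 (SD, n = 5) in the null captures and 709 ± 147 (SD, n = 4) in the wild-type captures (log2 difference -2.23 ± 0.34 SE, adjusted p = 0.0114). The other targeted gene, Hoxd11, overlapped between them, at 341 ± 121 (SD, n = 5) and 435 ± 115 (SD, n = 4), and was not called (-0.35 ± 0.35 SE, adjusted p = 0.635). Where its probes lie relative to the mutated part is not given in these sources. Null replicate 1 stands apart, with a median correlation of 0.896 with its group where the other arrays ranged from 0.928 to 0.979 with theirs. The hand-parted mesenchyme carried little bud RNA, with a summed signal of 8 bud markers of 1548 to 1823, against 142405 to 183962 in bud, 7884 to 48161 in wild-type captures and 8900 to 30409 in null captures. The captured mesenchyme therefore held bud transcripts in amounts that differed between arrays. The summed signal of 8 nephron progenitor markers was 1427 to 2063 in bud, 70603 to 88806 in hand-parted mesenchyme, 40902 to 69533 in wild-type captures and 18342 to 96233 in null captures. Among them Cited1 and Osr1 were dim on all 3 hand-parted mesenchymes. The mean of Cited1 was higher in bud than in hand-parted mesenchyme, at 256 against 61.8. Six2 fell to 609.9 on the lowest null array, within the range of the buds (435 to 700). Gapdh signal at the 3′ end relative to the 5′ end, which rises as RNA is degraded or shortened in amplification, ran from 6.53 to 12.2 in bud, 22.1 to 69.3 in hand-parted mesenchyme, 14.3 to 22.9 in wild-type captures and 18.4 to 26.3 in null captures. For Actb this ratio ran from 10.9 to 16.3 in bud and 11.1 to 17.9 in hand-parted mesenchyme. In the captures it ran from 14.8 to 20.9 in wild type and 17.5 to 27.6 in the null. By group means, the Gapdh ratio was higher in hand-parted mesenchyme than in the captures, and the Actb ratio was lower.

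Between captured and hand-parted wild-type mesenchyme 5 of the 10 genes were called, Fos, Fosb, Jun, Junb and Maff, all lower in the captures. Among all 12172 genes tested in the same comparison, 23.5% were called, 9.88% lower and 13.6% higher in the captures. For 6 of the 10, these and Fosl2, all captures lay below all hand-parted mesenchymes, as they did for 14.7% of the genes tested. The median difference over the 10 genes was -1.66, beside 0.08 over all genes tested. The filter on dim signals passed 9 of the 10, without Fosl1, and Fosb and Junb passed it through the hand-parted arrays only, since 0 of the 4 wild-type captures exceeded the array median for either. Collagenase, warming, the pooling of mesenchymes and freezing differ between the methods together, so they cannot be told apart, and in such bulk RNA fewer expressing cells cannot be told apart from less RNA per cell. Marker lists of cell types also moved with the method: 7 of 8 bud, 2 of 6 tested macrophage and 3 of 6 erythroid markers were called higher in the captures, 0 of 7 endothelial ones were called and 2 of 3 stromal ones were lower. Of 6 tested nephron progenitor markers 1 was called higher and 1 lower. Six2 lay at 20603 to 23655 in hand-parted mesenchyme and at 2673 to 6372 in the wild-type captures. The part of these in the AP-1 differences was not tested.

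**Figure D1:**
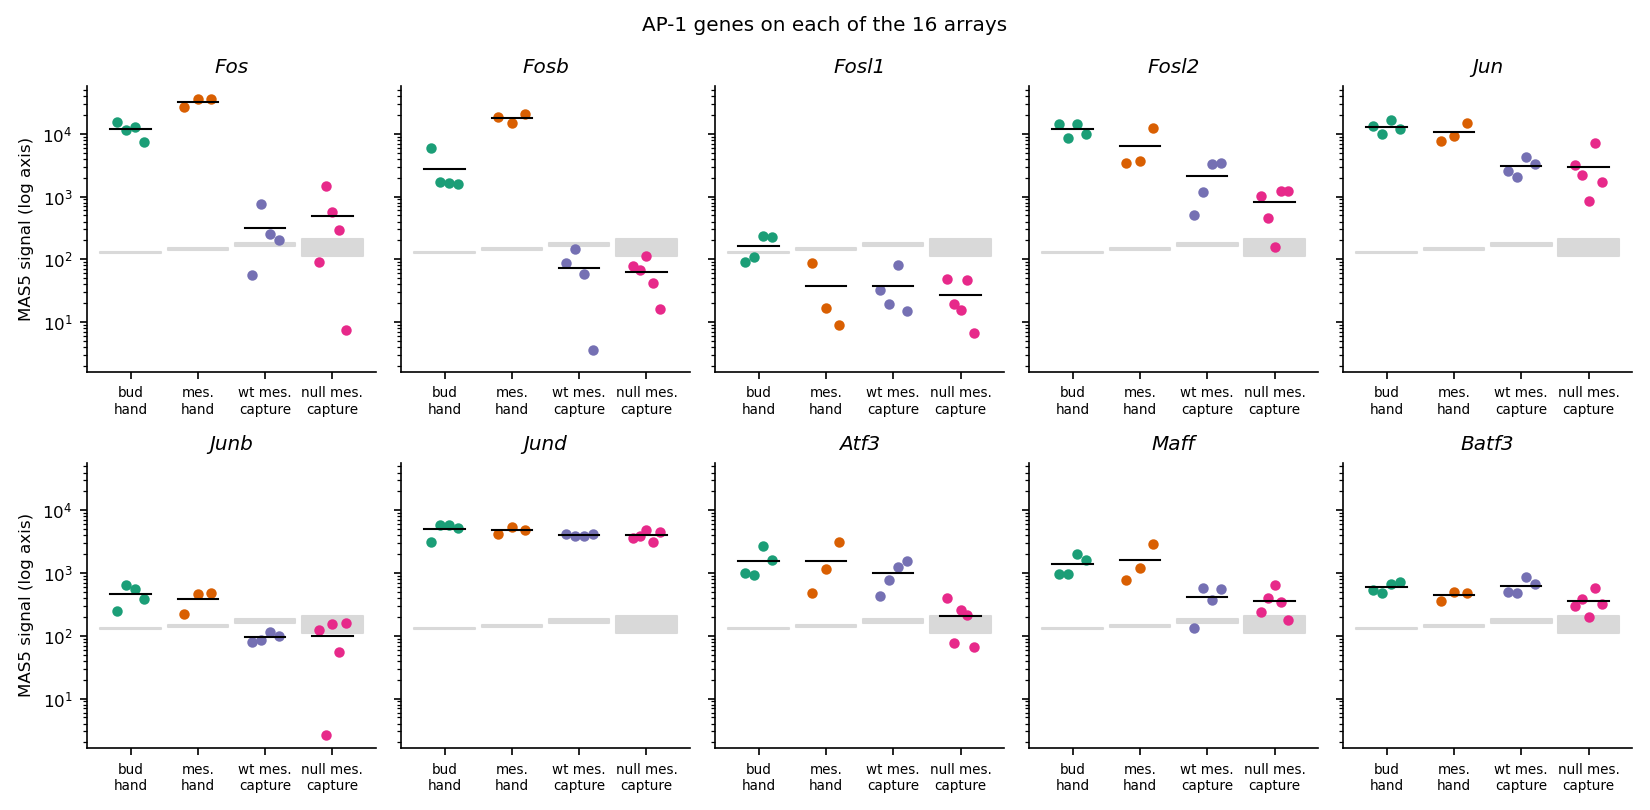
MAS5 signal (log axis) of each AP-1 gene on each array, in bud and mesenchyme parted by hand and in wild-type and null mesenchyme captured by laser. Points are arrays in order of replicate number, black lines are group means, and grey bands span the array medians of the group. Fos and Fosb lie above 1500 on all 7 hand-parted arrays and below it on all 9 captures, while Jund stays between 3122 and 5937 on all 16.

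Fos encodes the founding partner of the Jun proteins. Its signal was 26752, 35432 and 35870 in the hand-parted mesenchymes and 57.3, 768, 252 and 201 in the wild-type captures. The lowest hand-parted mesenchyme was thus far above the highest capture, and the captures differed among themselves by 13.4-fold. The mean was 32684 ± 5142 (SD, n = 3) against 320 ± 310 (SD, n = 4), a 102-fold difference (log2 difference -6.92 ± 0.54 SE, adjusted p = 9.65e-05). The log2 difference ran from -7.45 to -6.35 over the alternatives, and Fos was called in all 14.

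Fosb encodes a Fos protein with a strong activation domain and an immediate-early course like that of Fos. It was read at 18505, 14849 and 20617 in hand-parted mesenchyme. The wild-type captures gave 87.1, 145, 58.1 and 3.6, all dim. The difference was -7.54 ± 0.43 SE on the log2 scale (adjusted p = 1.42e-05), and between -8.22 and -6.40 over the alternatives, with a call in all 14. Since the captures were dim, the size of the difference depends on the offset and on the other settings.

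**Figure D2:**
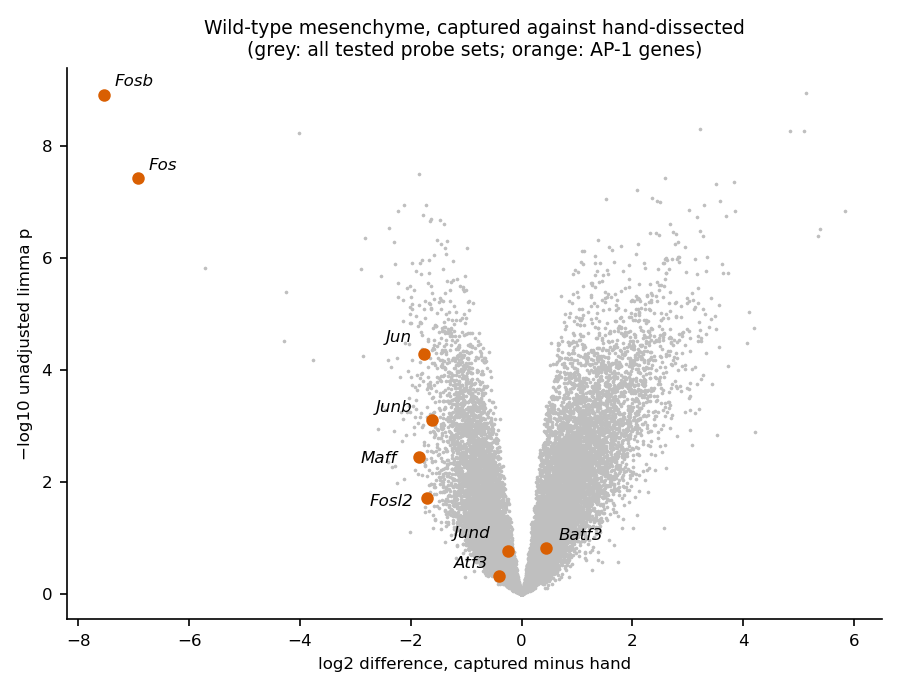
Log2 difference between captured and hand-parted wild-type mesenchyme (x axis) against −log10 of the unadjusted limma p (y axis) for 23612 probe sets in grey, with the 9 tested AP-1 genes in orange. Fosb at -7.54 and Fos at -6.92 lie at the left edge, Jun, Junb, Maff and Fosl2 between -1.86 and -1.62, and Jund, Atf3 and Batf3 between -0.40 and 0.44.

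Fosl2, which encodes the Fos-related protein Fra-2, was measured at 3432, 3689 and 12290 in hand-parted mesenchyme and at 516, 1173, 3339 and 3403 in the wild-type captures. The groups were apart by a narrow margin, the lowest hand-parted array lying next to the highest capture. The difference of -1.70 ± 0.62 SE was not called (adjusted p = 0.0666). It was called in 4 of 14 alternatives: without wild-type capture 3 (adjusted p = 0.0385) or 4 (0.0464), with array weights (0.00914), and, at the threshold, as the mean over both probe sets (0.04998). The other probe set of Fosl2 lay between 117 and 262 in these 7 arrays and differed by -0.38 ± 0.33 SE (adjusted p = 0.423). Fosl1, which encodes the related Fra-1, was dim on all 12 mesenchyme arrays of both methods, at 6.8 to 86.5, and was not tested there.

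Jun encodes the main transactivating partner of Fos. Its signals were 7729, 9106 and 14730 in hand-parted mesenchyme. The wild-type captures stood at 2581, 2034, 4329 and 3313, so the groups did not overlap. Jun was 3.43-fold lower in the captures (log2 difference -1.77 ± 0.28 SE, adjusted p = 0.00194) and was called in all 14 alternatives. Its other probe set gave the same direction at -0.71 ± 0.28 SE without a call (adjusted p = 0.0822).

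Junb, whose protein can restrain Jun, was read at 222, 459.5 and 473 in hand-parted mesenchyme and at 80, 86.5, 117 and 98.6 in the wild-type captures, where it was dim. The log2 difference was -1.62 ± 0.36 SE (adjusted p = 0.00846). Jund, the family member that most cells express without a stimulus, gave 4183, 5457 and 4879 against 4173, 3917, 3904 and 4183. These groups overlapped, and the difference of -0.25 ± 0.17 SE was not called (adjusted p = 0.308).

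Maff encodes a small Maf protein without an activation domain. It stood at 779, 1197 and 2949 in hand-parted mesenchyme and at 132, 582, 374 and 548 in the wild-type captures, with no overlap (log2 difference -1.86 ± 0.51 SE, adjusted p = 0.0217). Atf3 encodes a stress-induced factor that dimerizes with Jun proteins. Its signals of 476, 1166 and 3098 by hand and 437, 773, 1260.5 and 1552 in the captures overlapped, and the difference was -0.40 ± 0.56 SE (adjusted p = 0.633). Batf3, a partner of Jun known from dendritic cell development, ran from 354 to 495 by hand and from 485 to 868 in the captures (0.44 ± 0.29 SE, adjusted p = 0.282).

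Within the hand-parted mesenchymes the same arrays were often extreme. Replicate 5 had the lowest signal for 8 of the 10 genes, the exceptions being Fosb and Fosl1, and replicate 7 the highest for 7. Replicate 5 also had the highest Gapdh 3′ to 5′ ratio of the series, 69.3. Without replicate 7, 3 genes were called in place of 5: Fos, Fosb and Jun passed, and Junb (adjusted p = 0.0575) and Maff (0.101) did not. The part of RNA integrity in these values was not tested.

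The bud arrays widen the comparison to all 16 arrays, with the mean of both captured groups set against the mean of both hand-parted groups. All 7 hand-parted arrays lay above all 9 captures for 6 of the 10 genes: Fos, Fosb, Fosl2, Jun, Junb and Maff. Such a complete separation, with captures lower, was found in 1.73% of 12118 genes. Fos ran from 7517 to 35870 by hand (median 15572) and from 7.6 to 1477 in the captures (median 252). Fosb ran from 1573 to 20617 (median 5923) against 3.6 to 145 (median 67.5). The hand-parted Jun signals ran from 7729 to 16403 and the captured ones from 863 to 7032, with null replicate 4 at the top of the captures. The other probe sets of Jun and Fosl2 overlapped between the methods. That of Jun was called lower in the captures (-1.81 ± 0.28 SE, adjusted p = 0.000171). That of Fosl2 was not called (-0.49 ± 0.22 SE, adjusted p = 0.110).

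By the fit, 7 genes were called lower in the captures, the above 6 and Atf3, where 14.4% of all genes were called lower, 17.5% higher and 31.9% in all. Atf3 overlapped between the methods. The log2 differences were -6.15 ± 0.57 SE for Fos (adjusted p = 1.55e-06), -6.09 ± 0.34 SE for Fosb (1.13e-08), which was dim on all 9 captures and passed the filter through the hand-parted arrays only, -2.87 ± 0.45 SE for Fosl2 (0.000197) and -2.09 ± 0.32 SE for Jun (0.000155). Maff differed by -1.87 ± 0.34 SE, Junb by -1.82 ± 0.34 SE and Atf3 by -1.62 ± 0.41 SE. Jund (-0.28 ± 0.15 SE, adjusted p = 0.167) and Batf3 (-0.16 ± 0.22 SE, adjusted p = 0.616) were not called. Structure and genotype are not balanced between the methods here, and this fit shares its arrays with the other 3.

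**Figure D3:**
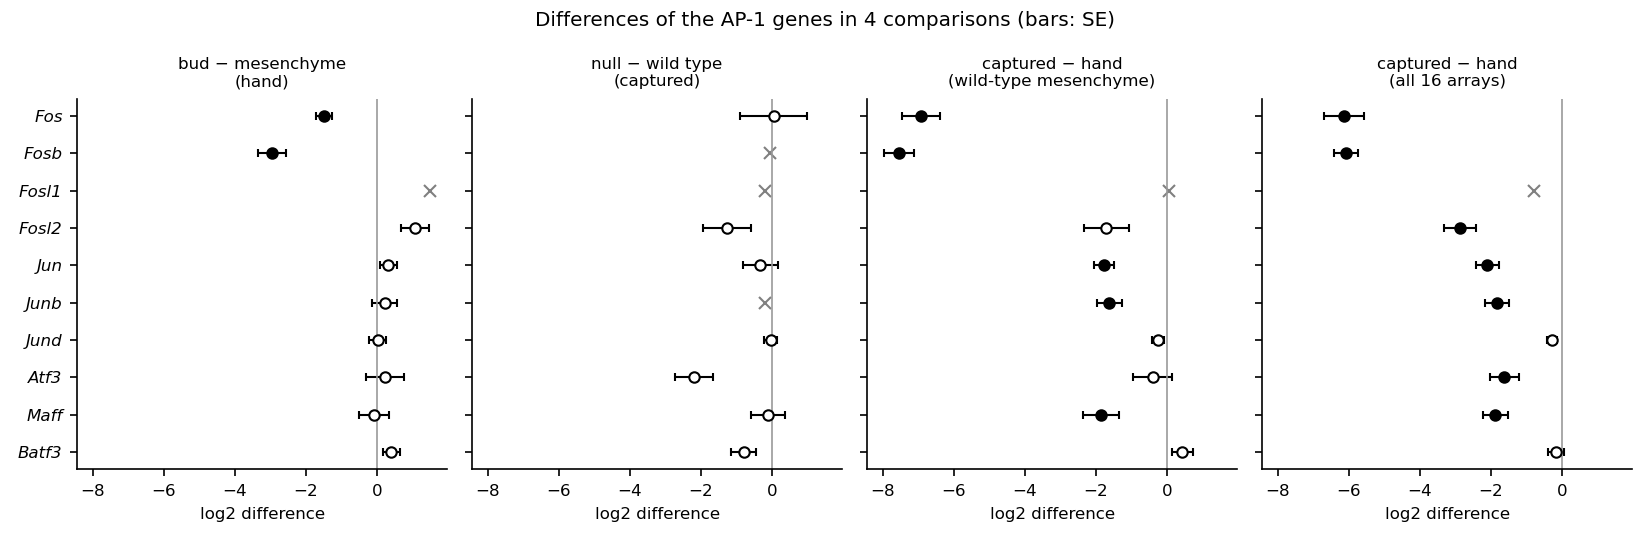
Log2 differences of the 10 AP-1 genes in the 4 comparisons. Points are estimates and bars their SE; filled points were called, open points were not, and crosses were too dim to be tested. Filled points stand to the left of 0 for 5 genes in captured minus hand wild-type mesenchyme, for 7 over all arrays and for 2 in bud minus mesenchyme, and none is filled in null minus wild type.

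Between bud and mesenchyme, both parted by hand, 2 of the 10 genes were called, Fos and Fosb, both lower in bud, where 28.5% of 12435 genes tested were called, 14.6% lower and 13.9% higher. All buds lay below all mesenchymes for these genes, as for 18.8% of the genes tested. Fos was read at 15572, 11463, 12810.5 and 7517 in the buds, all below the 3 mesenchymes (2.76-fold; log2 difference -1.50 ± 0.22 SE, adjusted p = 0.000433). With the spread estimated over all 16 arrays the same difference was not called (adjusted p = 0.280). Fosb was read at 5923, 1737, 1649 and 1573 in the buds, 1 array being far above the other 3 and still below the mesenchymes (6.61-fold; -2.95 ± 0.40 SE, adjusted p = 0.000203). Fosb was called in all 14 alternatives. All 4 buds exceeded every capture for both genes.

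The remaining Fos genes had higher means in bud and were not called. Fosl1 was 90.4, 107, 231 and 227 in the buds and 86.5, 17 and 8.9 in hand-parted mesenchyme. It was above the array median in 2 of the 7 arrays and therefore not tested; without the filter its log2 difference was 1.51 ± 0.43 SE (adjusted p = 0.0474). Its other probe set overlapped between the groups, at 8 to 47.1 and 11.1 to 122. Fosl2 was 14160, 8590, 14098 and 10003 in the buds, and mesenchyme replicate 7 fell within that range (log2 difference 1.08 ± 0.39 SE, adjusted p = 0.0633). Without that array the difference was 1.68 and called (adjusted p = 0.00113).

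The Jun genes overlapped between bud and mesenchyme. Jun was 13466, 10101, 16403 and 11775 in the buds (log2 difference from mesenchyme 0.33 ± 0.24 SE, adjusted p = 0.346). Its other probe set read 8258, 13989, 19746 and 13307 in the buds against 3566, 7182 and 7817 and was called higher in bud (1.17 ± 0.32 SE, adjusted p = 0.0192), so the probe sets of Jun disagree on a call. Junb differed by 0.23 ± 0.35 SE, Jund by 0.03 ± 0.25 SE, Atf3 by 0.24 ± 0.53 SE, Maff by -0.08 ± 0.41 SE and Batf3 by 0.41 ± 0.24 SE, with adjusted p from 0.237 to 0.946. Markers of other cells were also lower in bud, the summed signal of 7 macrophage genes being 694 to 1069 against 4951 to 13629 in hand-parted mesenchyme and that of 7 endothelial genes 2188 to 3638 against 13060 to 18246. Their part in the Fos and Fosb values was not tested.

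Between null and wild-type captures, 0 of the 10 genes were called by limma, and 2 of the 7 that could be tested, Atf3 and Batf3, had an unadjusted p below 0.05, as had 19.1% of all 12161 genes tested. Of those genes 1.74% were called, 0.748% higher and 0.995% lower in the null. Atf3 was read at 401, 75.6, 259.6, 218 and 65.6 in the null captures and at 437, 773, 1260.5 and 1552 in the wild-type captures. All null arrays were below all wild-type arrays, by a narrow margin between the highest null array, replicate 1, and the lowest wild-type array, replicate 1. Complete separation with the null lower was found in 5.77% of genes. The mean was 204 ± 139 (SD, n = 5) against 1006 ± 497 (SD, n = 4), a 4.93-fold difference that missed the threshold (log2 difference -2.19 ± 0.53 SE, adjusted p = 0.0625). Without null replicate 1 it passed (-2.46, adjusted p = 0.0174), as it did with array weights (adjusted p = 0.0199) and in the fit on all 16 arrays (0.0212), and it missed in the other 14 of 17 alternatives.

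The null captures also carried less macrophage RNA on some arrays, the summed signal of the 7 macrophage genes running from 1395 to 15046 against 10933 to 23885 in the wild-type captures. The median log2 difference was -2.35 for the tested macrophage markers and between -0.95 and -0.41 for the other marker lists. Their part in the Atf3 difference was not tested. Null sections came from urogenital ridges and wild-type sections from kidney rudiments. Pooling of 3 to 4 mesenchymes is recorded for the wild-type captures and not for the null ones. Neither the source piece nor pooling can therefore be told apart from genotype. Batf3 was 294, 381, 202, 578 and 318 in the null and 495, 485, 868 and 659 in the wild type (log2 difference -0.80 ± 0.35 SE, adjusted p = 0.257).

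Fos in the null captures was 91.1, 1477, 563, 289 and 7.6, a 194-fold range that spans the wild-type captures (log2 difference 0.05 ± 0.94 SE, adjusted p = 0.984). Fosb was dim on all 5 null arrays, at 16.3 to 112, and with Fosl1 and Junb was not tested. Junb ranged from 2.6 to 160.5 in the null. Fosl2 stood at 1030, 451, 160, 1208 and 1244 (-1.26 ± 0.67 SE, adjusted p = 0.338). Jun stood at 3170.0, 2169, 863, 7032 and 1680 (-0.32 ± 0.49 SE, adjusted p = 0.765), and its other probe set differed by -1.04 ± 0.38 SE (adjusted p = 0.178). Jund had the least spread, 3596, 3911, 4774, 3122 and 4562 (-0.03 ± 0.18 SE, adjusted p = 0.936). Its other probe set was too dim to be tested and lay higher on all null arrays, at 94.6 to 141.9 against 36.7 to 82 in the wild type (log2 difference 0.64), so the probe sets of Jund differ here. Maff differed by -0.10 ± 0.48 SE (adjusted p = 0.930).

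Ordered by group means, Fos and Fosb shared one pattern: hand-parted mesenchyme highest, then bud, then the captures, with neighbours not overlapping except for the 2 captured groups. For Fosl2, Jun and Junb bud and hand-parted mesenchyme overlapped, as did the 2 captured groups, and the break lay between the methods. Maff showed that break too. For Jund and Batf3 every pair of neighbours overlapped. For Atf3 the break lay between the wild-type and the null captures.

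Other genes of the pathway were followed through lists. Of 24 early-response genes outside AP-1, 23 were tested between captured and hand-parted wild-type mesenchyme, with a median difference of -1.36. Of these 13 were called, all lower in the captures, where 9.88% of all genes tested were called lower. The zinc finger factors of the Egr family led them, Egr2 at -5.72 ± 0.63 SE (adjusted p = 0.000391), Egr3 at -4.29 ± 0.64 SE (0.00150) and Egr1 at -4.01 ± 0.26 SE (2.28e-05). In the wild-type captures Egr2 had a mean of 160 ± 176 (SD, n = 4), below their array medians of 162.8 to 182.3. The size of its difference therefore depends on the offset. In bud against mesenchyme 2 of the early-response genes were higher and 8 lower of 23 tested, beside 13.9% and 14.6% of all genes tested. In null against wild type 0 of 21 tested were called, beside 1.74%. Between bud and mesenchyme Egr1 differed by -0.14 ± 0.24 SE (adjusted p = 0.713) and Egr3 by -3.30 ± 0.58 SE (0.00141).

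Upstream, 19 of 24 kinases and serum response genes were analysed here. In captured against hand-parted wild-type mesenchyme 7 were lower and 2 higher of 18 tested, beside 9.88% and 13.6% of all genes tested. The lower ones were led by Map2k6, a p38 kinase kinase (-1.44 ± 0.24 SE), the ribosomal S6 kinase gene Rps6ka3 (-1.12 ± 0.15 SE) and Map3k1, which acts in the JNK branch (-1.08 ± 0.32 SE), with adjusted p of 0.000995 to 0.0319. Between null and wild type 1 of the 18 was called lower, Rps6ka3 (-1.05 ± 0.20 SE, adjusted p = 0.0321), and 1 higher, Map2k1 (0.60, adjusted p = 0.0481). Of all genes tested there, 0.995% were called lower and 0.748% higher.

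Of 23 other basic leucine zipper genes 21 were analysed here and 19 tested, with 2 higher and 3 lower in the captures. This count lay near the share of all genes, of which 23.5% were called. Cebpd (1.38 ± 0.32 SE), Atf5 (1.14 ± 0.34 SE) and Bach1 (-1.14 ± 0.19 SE) had the largest called differences. Of 24 genes known as AP-1 targets, 22 were analysed here and 11 tested. In the captures 1 was called higher, the metallothionein gene Mt1 (1.28 ± 0.24 SE, adjusted p = 0.00362), and 0 were called lower. Read through 1 probe set per gene, 1 of the 11 therefore passed, beside 23.5% of all genes. Further probe sets of Ccnd1, another target gene, also lay higher in the captures, by 1.66 and 1.22 on the log2 scale. Their unadjusted limma p-values were below that of Maff, which was called. The count of 1 therefore depends on the probe set read.

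**Figure D4:**
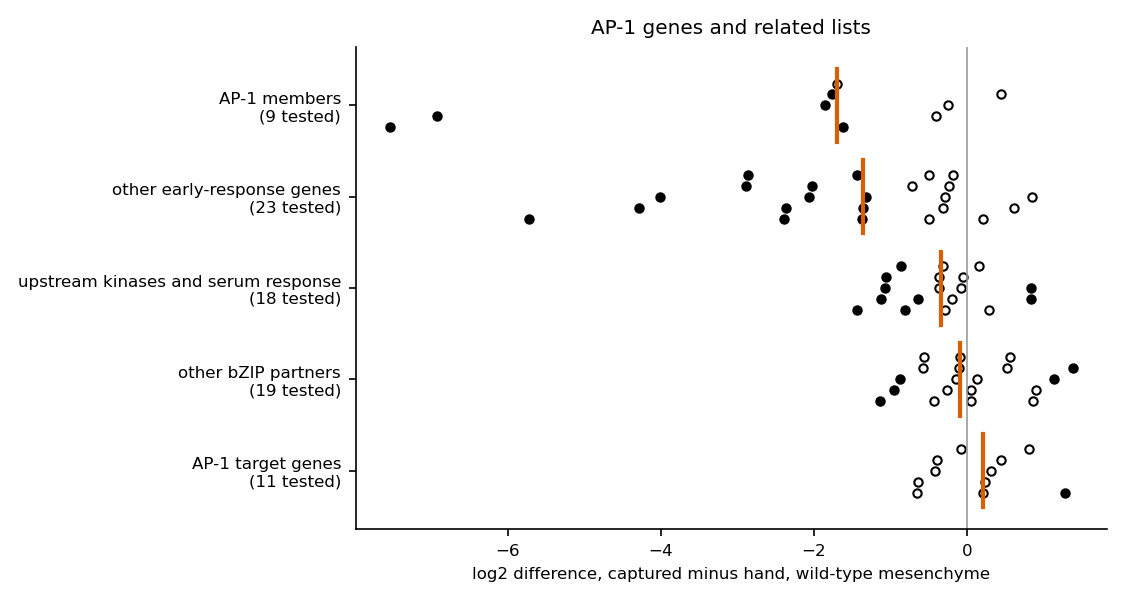
Log2 differences between captured and hand-parted wild-type mesenchyme for the tested AP-1 genes and the tested genes of 4 related lists. Each point is a gene, filled where called, and orange bars are list medians. The medians are -1.70 for the 9 tested AP-1 genes, -1.36 for other early-response genes, -0.33 for kinases and serum response genes, -0.09 for other basic leucine zipper genes and 0.21 for AP-1 target genes.

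The genes most like Fos over the 16 arrays were sought by Pearson correlation of log2 signals among 12109 other genes. They were Egr1 (r = 0.94), Gid4 (0.94), Msl2 (0.93), Sp1 (0.93), Egr2 (0.92), Nek2 (0.92), Slc35a4 (0.91) and Scaf8 (0.91). The arrays fall into the 2 methods of isolation, so within each method the coefficients can be lower: within the 7 hand-parted arrays r was 0.47 for Egr1 and 0.04 for Gid4, and within the 9 captures 0.62 and 0.65. Msl2, a subunit of a chromatin-modifying complex, kept r = 0.90 within the hand-parted arrays and 0.54 within the captures. Gid4, which encodes a ubiquitin ligase subunit, stood at 6965 ± 1082 (SD, n = 4) in bud, 6922 ± 233 (SD, n = 3) in hand-parted mesenchyme, 3347 ± 753 (SD, n = 4) in wild-type and 3227 ± 330 (SD, n = 5) in null captures. Among the AP-1 genes r with Fos over the 16 arrays was 0.93 for Fosb, 0.88 for Maff, 0.76 for Jun and 0.19 for Batf3. Within the hand-parted arrays it was 0.94 for Fosb, 0.08 for Maff and -0.25 for Jun, and within the captures 0.46, 0.77 and -0.12. For the remaining members r ran from 0.19 (Batf3) to 0.68 (Fosl2) over the 16 arrays. Within the hand-parted arrays theirs ran from -0.90 (Fosl1) to -0.05 (Atf3), and within the captures from -0.61 (Junb) to 0.04 (Atf3). These coefficients are descriptions and carry no test.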

How the data were processed

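Per the labels' protocols, 2 rounds of amplification preceded hybridization of the 16 samples to Affymetrix MOE430_v2 arrays. The deposited values are linear intensities, MAS5 signals per the submitters' processing notes; the sources used here give no version or scan date. In the deposited intensities the mean after trimming 2% at each tail is equal on all arrays. After removal of 64 control probe sets, 45037 remained, of which 34945 had 1 symbol in the platform annotation.

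Signals were converted to log2(signal + 36.3), the offset being the 25th percentile. Probe sets were kept where the number of arrays on which they exceeded the array median reached the size of the smaller side, and fitted with limma 3.58.1 in R 4.3.3 (intensity trend, Benjamini-Hochberg adjustment over all kept probe sets, threshold 0.05). The wild-type and null comparisons used their own arrays only; the comparison of methods over all arrays used 4 group means. All 10 genes were named. List genes were named by the 3 largest called differences between methods in wild-type mesenchyme, and Fos-like genes by the 8 highest correlations. Egr1 and Egr3 in bud, Rps6ka3 and Map2k1 in the null and the further Ccnd1 probe sets were added after their values were seen. The genes and lists were chosen with earlier results of these data known. The fits were tested on simulated data. Promoter windows came from RefSeq, GRCm38.p6. Alternatives were another offset, quantile normalization, no filter, array weights, the mean over probe sets, one fit on all arrays, a replicate block and leaving out each array. Python 3.11.15 and matplotlib 3.10.9 drew the figures.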

Additional observations from a re-analysis of the deposited data

Results flagged for a closer look

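Of 30 sets of a gene in a group of 4 or 5 arrays, 1 had an array far from the others. Fosb stood at 5923 in bud replicate 1, where the other 3 buds stood at 1573 to 1737. The gap to the nearest array was 0.926 of the range of the group on the log2 scale. Chance alone flags about 1 in 20 such sets. The same array had the highest Fos and Fosl2 signals of the buds, at 15572 and 14160, and the lowest Junb and Jund, at 248 and 3154.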

How the results depend on the processing

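The count of called AP-1 genes kept within 1.5 times of the value reported except as follows. In bud against mesenchyme it was 2 and became 1 in one fit on all 16 arrays; without single arrays it was 2 to 3. In null against wild type it was 0 and became 1, Atf3, with array weights and in one fit on all 16 arrays; without single arrays it was 0 to 1. Between methods in wild-type mesenchyme it was 5, and 3 to 6 without single arrays. Over all arrays it was 7, and 7 to 8 without single arrays.

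Replicate numbers 1 to 4 coincide in both captured groups and in bud, and number 5 in hand-parted mesenchyme and the null. Over these 13 pairs the deviations from the group means correlated at -0.09 to 0.07, 0 of them over 0.1, so the numbers were not taken to pair the samples. With the replicate block the count over all arrays was 4 and that in null against wild type 0. No called AP-1 difference changed sign in any alternative run, and the cause of the changed counts was not tested. Quantile normalization moved the median of all probe sets between methods in wild-type mesenchyme from 0.11 to -0.04 and the share of higher calls from 65.8% to 53.4%; the AP-1 count remained 5. Fos, Fosb and Jun were called in all 14 alternatives of that comparison. The differences of dim genes such as Fosb in the captures depend on the offset. Arrays of 3 to 5 per group limit the precision.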
